A study of Homo sapiens with 112 samples.

Results

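VCaP cells exposed for 22 h to the androgen R1881 together with 500 nM darolutamide were compared with VCaP cells exposed to R1881 alone. The members of the comparison are 13 of the 112 RNA-seq libraries of the series, namely 4 with darolutamide (replicates 1 to 4) and 9 with R1881 alone (replicates 1 to 9), taken by cell line, treatment and time in the sample labels. Of 58684 genes in the count table, 19266 had at least 10 reads in at least 4 VCaP libraries and were tested. The study asked how an androgen receptor antagonist alters the transcriptome of prostate cancer cells. VCaP is an established human prostate cancer cell line with a TMPRSS2-ERG fusion, which puts ERG under an androgen-driven promoter. All libraries of the comparison come from this 1 line, from cells kept for 2 days in medium with 10% charcoal-stripped (steroid-depleted) serum and then given 1 nM R1881, so that androgen was present in both groups and darolutamide, in place of its vehicle DMSO, was the only agent that differed. The vehicle group (DMSO without R1881, 22 h, 8 libraries) and the higher dose (1 nM R1881 plus 2 µM darolutamide, 22 h, 5 libraries) were used as references. So were the 8 h groups (DMSO without R1881, 10 libraries, R1881, 10 libraries, and R1881 plus 500 nM darolutamide, 4 libraries). The labels do not say that the replicates were separate cultures, so p-values measure the spread between these libraries, which may be partly technical.

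The androgen receptor is a transcription factor of the nuclear receptor family that is held in the cytoplasm by chaperones, enters the nucleus when it binds a steroid, and acts largely from enhancers together with FOXA1 and other lineage factors. In luminal prostate cells it drives secreted proteases such as prostate-specific antigen, lipid synthesis and the secretory machinery, and it represses a further set of genes. Growth of most prostate cancers depends on it. Darolutamide occupies the ligand-binding domain and competes with the androgen.

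Levels are given as CPM, the reads of a gene relative to the TMM-scaled total of its library. A gene was called when the Benjamini-Hochberg adjusted p of edgeR's quasi-likelihood test was under 0.05, and a log2 fold change is 500 nM darolutamide plus R1881 relative to R1881 at 22 h unless another comparison is named. The 13 libraries held 15798498 to 22198990 assigned reads. The luminal markers KRT8, KRT18, EPCAM, CDH1, KLK2 and KLK3 as well as ERG were present in each of them. Of 14 markers of basal, stromal, endothelial and immune cells, 6 (TP63, KRT5, COL1A2, CDH5, PTPRC and CD3E) had no read in any of the 13, and their summed level was 4.87 to 5.86 CPM with 500 nM darolutamide and 2.84 to 5.27 CPM with R1881. Of the 4 that were tested only LUM, a stromal proteoglycan gene, was called, at 0.71 to 1.05 CPM with darolutamide and 0.0999 to 0.332 CPM with R1881 (2.08 ± 0.28). With DMSO, LUM was 31.7-fold higher than with darolutamide, and the 14 markers summed to 26.7 to 30.3 CPM. The rise of LUM was thus towards the vehicle level of the same cell line. In bulk RNA, fewer cells of a state and less RNA per cell cannot be told apart.

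Promoter sequences are shown for members of 4 kinds of genes, androgen targets, replication, mitosis and secretory genes, and these members were chosen because they hold a short motif known for their kind. They come from RefSeq (GRCh38.p14), read 5′ to 3′ on the strand of the gene, and capitals mark motif matches found within 250 bases upstream of the gene start. KLK2 and KLK3, the neighbouring kallikrein genes that encode prostate secretory proteases, carry an androgen response element-like motif, GNACA and GTNC with 4 bases between them.
KLK3 (chr19:50854715-50854794, plus strand): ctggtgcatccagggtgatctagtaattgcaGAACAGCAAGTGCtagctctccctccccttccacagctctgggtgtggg
KLK2 (chr19:50873239-50873318, plus strand): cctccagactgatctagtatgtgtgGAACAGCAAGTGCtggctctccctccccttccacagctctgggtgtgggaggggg
The 13 letters in capitals, GAACAGCAAGTGC, are the same in both genes and begin at position -169 from the KLK3 start and at -175 from the KLK2 start, both RefSeq starts. That of KLK2 lies inside the longer span of the gene in GENCODE that is given with its levels. Searched on both strands, this motif occurred in 3 of 41 androgen-induced genes with a promoter in the table (7.32%), in 1.81% of all 35116 promoters and in 1.5% of the 10750 promoters of tested genes. The stricter form, GNACA and TGTNC with 3 bases between them, occurred in 0 of the 41, in 0.327% of all promoters and in 0.158% of those of tested genes. For the DNA replication genes the letters TTTNGCGC, a match to the E2F site, are in capitals.
E2F1 (chr20:33686386-33686445, minus strand): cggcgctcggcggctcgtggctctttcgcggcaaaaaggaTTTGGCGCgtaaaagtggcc
DTL (chr1:212035688-212035747, plus strand): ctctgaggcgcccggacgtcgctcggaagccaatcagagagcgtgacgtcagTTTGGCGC
MCM6 (chr2:135876520-135876603, minus strand): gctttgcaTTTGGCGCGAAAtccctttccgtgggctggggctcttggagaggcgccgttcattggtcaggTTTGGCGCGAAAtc
In MCM6 each run in capitals, TTTGGCGCGAAA, holds overlapping matches on both strands. The E2F-like motif was found in 12 of 42 replication and S-phase genes (28.6%), in 1.51% of all promoters and in 2.34% of those of tested genes. Of the mitotic genes, PLK1 and MKI67 carry TTTGAA, the letters of the cell cycle genes homology region (CHR).
PLK1 (chr16:23678829-23678888, plus strand): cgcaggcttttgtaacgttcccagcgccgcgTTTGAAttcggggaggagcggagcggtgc
MKI67 (chr10:128126424-128126483, minus strand): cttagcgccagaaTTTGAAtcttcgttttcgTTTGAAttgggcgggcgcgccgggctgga
TTTGAA was present in 19 of 37 G2 and mitosis genes (51.4%), in 1 of 42 replication genes, in 13.3% of all promoters and in 8.07% of those of tested genes. For the secretory genes, capitals mark the endoplasmic reticulum stress element (CCAAT and CCACG with 9 bases between them) in HSPA5 and XBP1 and, in COPB1, CCACGTCA, the reverse complement of TGACGTGG.
HSPA5 (chr9:125241364-125241443, minus strand): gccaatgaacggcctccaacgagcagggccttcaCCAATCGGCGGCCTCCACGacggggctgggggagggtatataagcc
XBP1 (chr22:28800570-28800649, minus strand): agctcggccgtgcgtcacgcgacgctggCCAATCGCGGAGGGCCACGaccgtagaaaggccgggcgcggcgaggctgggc
COPB1 (chr11:14499812-14499891, minus strand): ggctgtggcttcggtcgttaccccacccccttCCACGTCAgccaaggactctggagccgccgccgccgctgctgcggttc
The endoplasmic reticulum stress element occurred in 7 of 39 folding genes (17.9%; CALR, CANX, CRELD2, ERO1B, HSP90B1, HSPA5 and XBP1), in 0.074% of all promoters and in 0.13% of those of tested genes. TGACGTGG occurred in 5 of 30 coat protein genes (16.7%), in 0.612% of all promoters and in 0.735% of those of tested genes. The E-box, CACGTG, was also searched and occurred in 2 of 18 MYC and ribosome biogenesis genes (11.1%). This was near its share of 8.85% in the promoters of tested genes (6.34% of all promoters). A match describes letters only, and factor binding was not analysed here.

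Of the 19266 genes, 10219 (53.0%) were called, 5141 upward (26.7%) and 5078 downward (26.4%). The changes were mostly small, as 1552 genes (8.06%) differed by more than 1 on the log2 scale, of which 1025 (5.32%) rose and 527 (2.74%) fell. The median log2 fold change of all genes was 0.013. Scaled by library totals without TMM factors the median was 0.11 and 6611 genes were called upward and 3817 downward, so the balance of small rises and falls depends on the scaling. In 3413 genes (17.7%) all 4 darolutamide libraries lay above all 9 R1881 libraries, and in 3530 (18.3%) they lay below. As R1881 libraries of the comparison also define the R1881 response, the response was taken from R1881 replicates 5 to 9 against DMSO, and the antagonist effect from replicates 1 to 4 of both groups. Of 1818 genes induced by R1881 by more than 1 (log2) in the first set, 1361 (74.9%) fell with 500 nM darolutamide in the second set and 18 rose, with a median log2 fold change of -0.65. Of 2762 repressed genes, 1303 (47.2%) rose and 20 fell, with a median of 0.66. Over all genes, 23.4% were called upward and 22.8% downward in that second set.

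**Figure D1:**
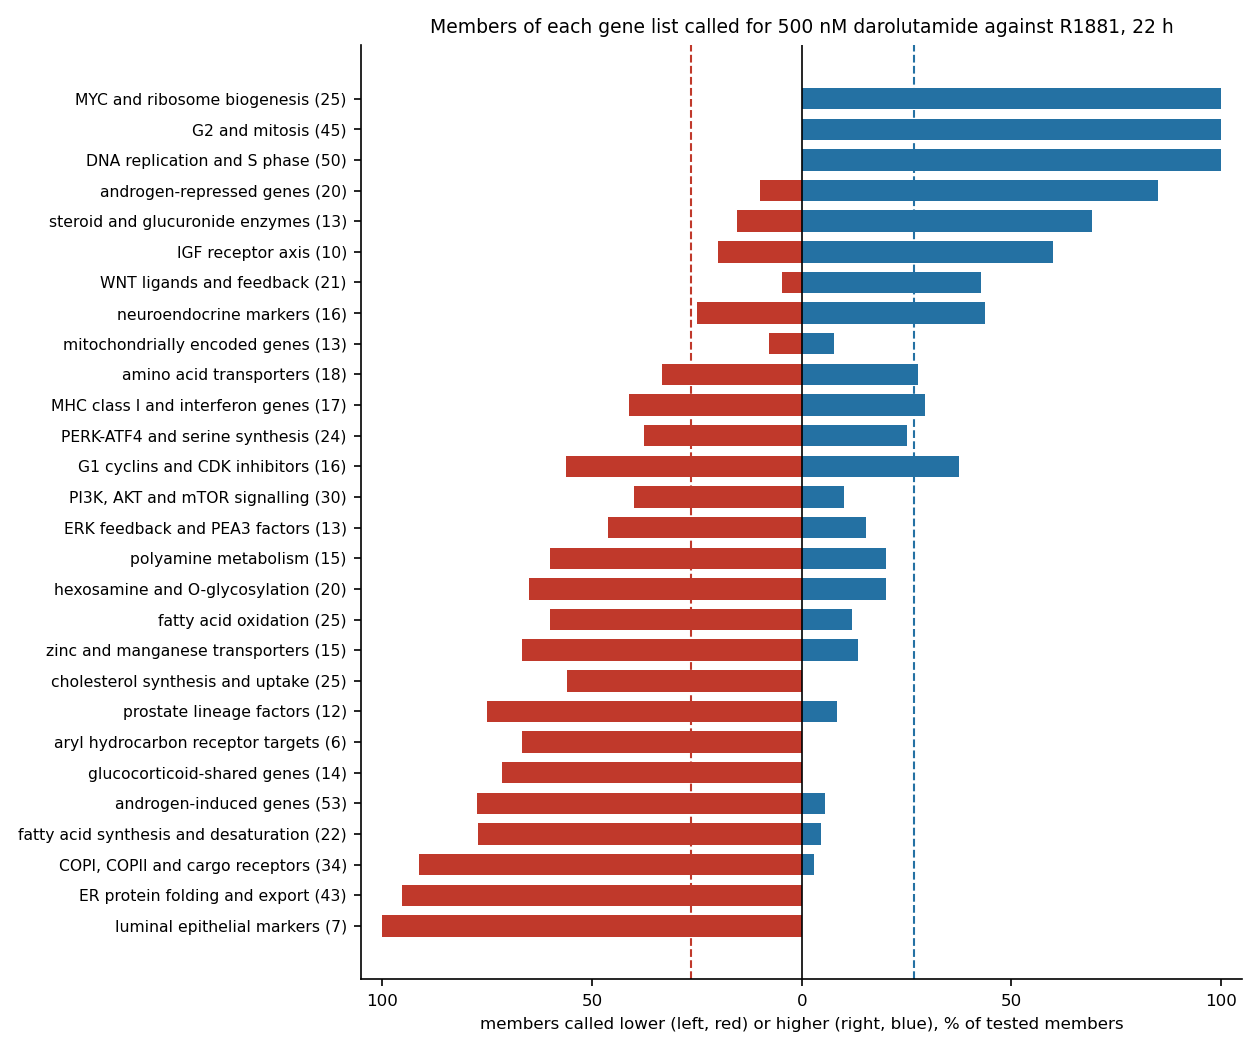
Share of the tested members of each gene list (number in brackets) called lower (left, red) or higher (right, blue) with 500 nM darolutamide against R1881 at 22 h, in percent; dashed lines give the shares over all tested genes, 26.4% lower and 26.7% higher. The replication, mitosis and ribosome lists reach 100% on the right, and the folding and coat protein lists lie almost wholly on the left.

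Androgen-induced genes were partly lowered, beside 26.4% of all genes called downward and 26.7% called upward. Of 53 tested members, 41 fell, 3 rose (AMIGO2, ZBTB10 and CAMKK2, the last by only 0.072) and 9 were not called, and their median log2 fold change was -0.62 against 0.013 for all genes. Against DMSO, for which 12089 of all genes were called (62.7%), 46 of the 53 remained higher (31.9% of all genes were higher), with a median of 1.01. These 2 comparisons share the 4 darolutamide libraries. The call of CAMKK2 was lost in 6 alternatives, with no filter, filterByExpr, control replicates 6 and above or the replicate block, and without 500 nM replicate 1 or 3. Of the listed genes, AMIGO2, TSC22D3, ADAMTS1 and PTGER4 were lower with R1881 than with DMSO, by log2 fold changes of -5.05, -0.70, -0.41 and -0.38, so the name of the list does not describe them here. AMIGO2, a cell adhesion protein, had 2.42, 2.69, 2.30 and 2.54 CPM with darolutamide, 0.591 to 1.20 (median 0.992) CPM with R1881 and 28.1 to 33.4 (median 29.3) CPM with DMSO, and its rise of 1.47 was thus towards the vehicle level. As a mean over the 53 genes, the darolutamide libraries lay -0.72 to -0.61 (log2) from the R1881 mean, the 2 µM libraries -1.22 to -1.15 and the DMSO libraries -1.79 to -1.71, with no overlap between the groups.

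**Figure D2:**
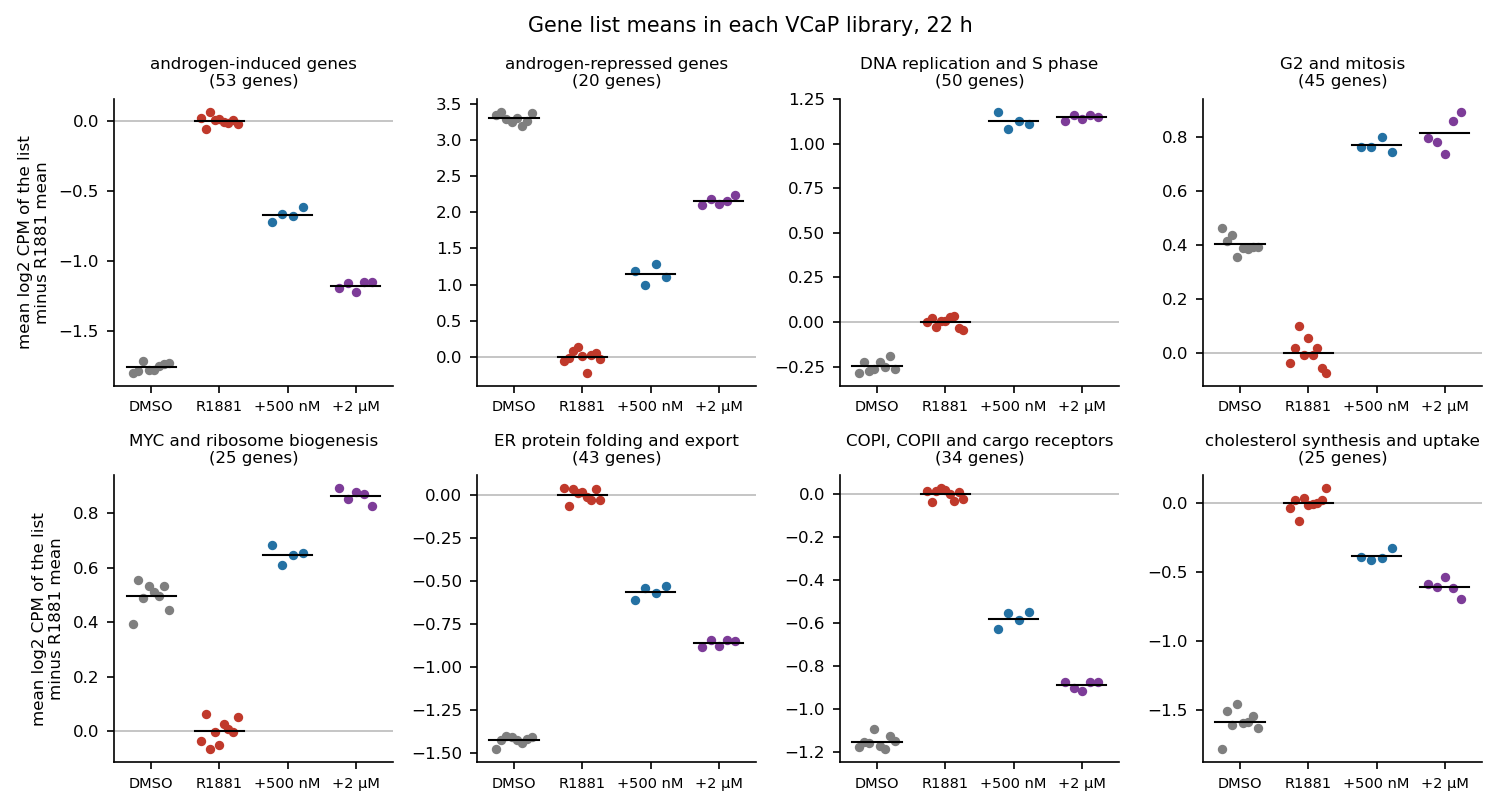
Mean log2 CPM of 8 gene lists in every VCaP library at 22 h, as the difference from the mean of the R1881 libraries; each point is a library and each bar a group mean, for DMSO (8), R1881 (9), R1881 plus 500 nM (4) and plus 2 µM darolutamide (5). Androgen-induced genes step down from R1881 through 500 nM (mean -0.67) and 2 µM (-1.17) to DMSO (-1.75), whereas the S-phase genes stand at 1.12 and 1.15 at the 2 doses and at -0.25 in DMSO.

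FKBP5 (chr6:35573585-35728583), a co-chaperone of steroid receptors and a direct androgen receptor target, had the largest fall of the genes above median expression. Its level was 476, 548, 519 and 538 CPM in the 4 darolutamide libraries, 3031 to 3579 (median 3273) CPM in the 9 R1881 libraries and 67.3 to 76.2 (median 71.3) CPM in the 8 DMSO libraries. Every darolutamide library lay far below every R1881 library and well above DMSO, with a log2 fold change of -2.65 ± 0.048 (SE, adjusted p = 1.16e-44). At 2 µM the level was 182 to 205 (median 192) CPM, so the remainder was reduced further.

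TMPRSS2 (chr21:41464300-41531116), a membrane serine protease whose promoter is the androgen-driven side of the ERG fusion, gave 613, 613, 596 and 587 CPM with darolutamide and 1794 to 1943 (median 1879.8) CPM with R1881. The groups did not overlap and the log2 fold change was -1.64 ± 0.04 (SE, adjusted p = 1.27e-38). DMSO libraries held 66.1 to 76.3 (median 69.9) CPM, so the gene was still 8.52-fold above vehicle at 500 nM. ERG itself fell by less, with a log2 fold change of -0.65 ± 0.04 (SE, adjusted p = 6.58e-21).

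The secreted kallikreins differed from each other. KLK3 (chr19:50854915-50860764), the gene of prostate-specific antigen, had 63.6, 62.2, 64.0 and 74.6 CPM in the darolutamide libraries against 177 to 204 (median 190.0) CPM with R1881 and 14.9 to 20.0 (median 17.8) CPM with DMSO, and replicate 4 stood above the other 3. KLK2 (chr19:50861568-50880567) had 5374, 5354, 5496 and 5682 CPM against 8159 to 8743 (median 8532) CPM and 2588 to 3023 (median 2952) CPM. The log2 fold changes were -1.53 ± 0.077 and -0.64 ± 0.037, with no overlap between darolutamide and R1881 in either gene. The 2 genes are close in sequence, and how reads that align to both were counted is not given, so their split is uncertain. KLK4, chosen after its values were seen, was at 198, 185, 179.5 and 222 CPM and 255 to 454 (median 362) CPM, with a log2 fold change of -0.90 ± 0.16 and a wide spread within the R1881 group.

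**Figure D3:**
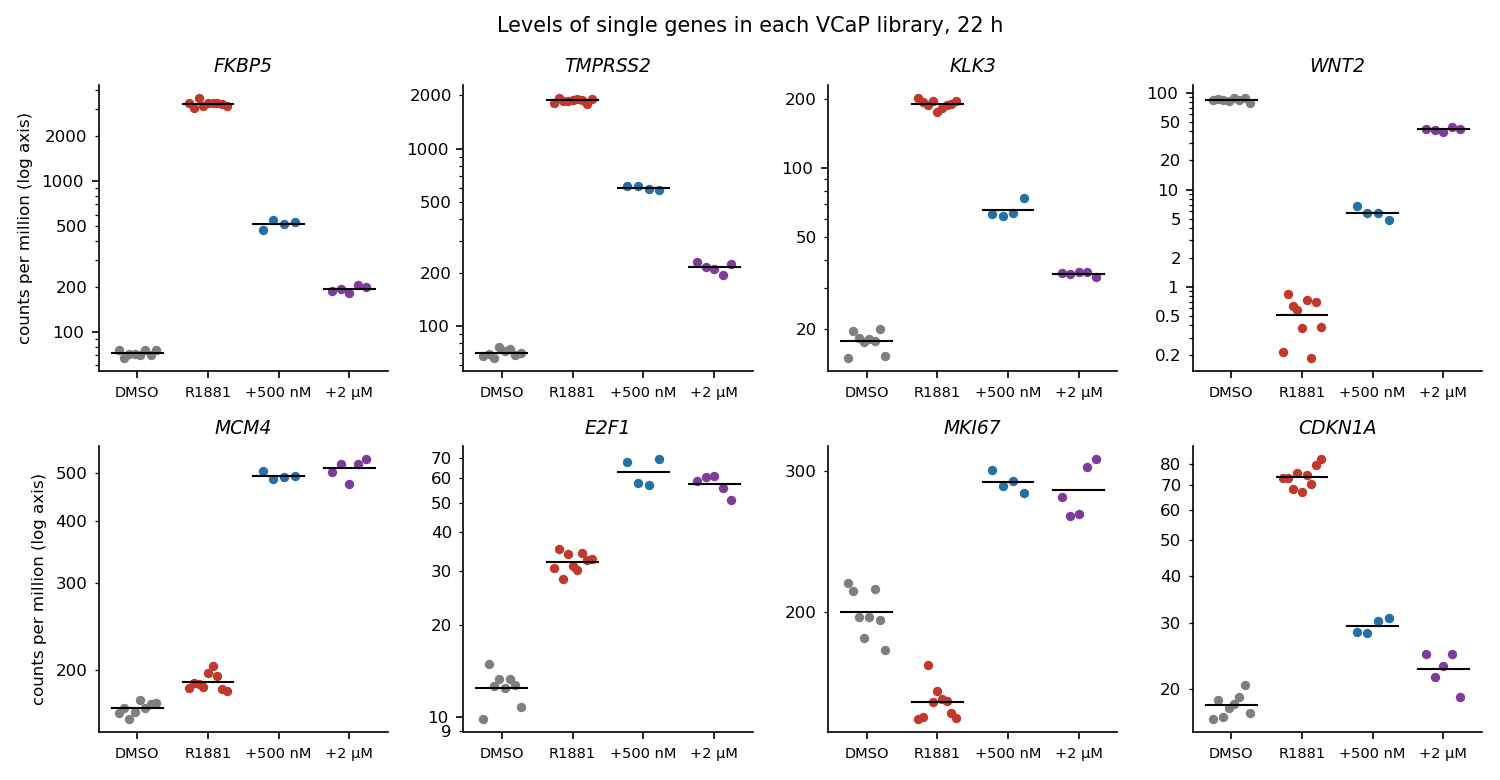
Levels of 8 genes in each VCaP library at 22 h in CPM (log axes), with one point per library and bars for group means in DMSO, R1881 and R1881 plus 500 nM or 2 µM darolutamide. FKBP5, TMPRSS2, KLK3, WNT2 and CDKN1A are graded between R1881 and DMSO, while MCM4, E2F1 and MKI67 are highest in both darolutamide groups.

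NCAPD3, a condensin II subunit that androgen induces strongly in prostate cells, was at 1321, 1436, 1338 and 1635 CPM with darolutamide, 4983 to 5682 (median 5528) CPM with R1881 and 97.5 to 109 (median 104.6) CPM with DMSO. STEAP4, a metalloreductase, was at 252, 289.7, 282 and 299 CPM, 877 to 1095 (median 949) CPM and 6.52 to 7.75 (median 7.37) CPM in the same order. Both fell without overlap, with log2 fold changes of -1.91 and -1.78, and both stayed far above DMSO. They also had the largest further falls from 500 nM to 2 µM among genes above median expression, with STEAP4 at -2.75 ± 0.067 (SE, adjusted p = 6e-38). The prostatic acid phosphatase gene ACPP changed by -0.46 ± 0.046 and IGF1R, the growth factor receptor, by -0.67 ± 0.031. PMEPA1, a feedback inhibitor of TGF-beta signalling, was nearly at its R1881 level, with 1413, 1363, 1379 and 1419 CPM against 1453 to 1518 (median 1479) CPM, a log2 fold change of -0.088 ± 0.027 (SE, adjusted p = 0.00451) that was not called without TMM factors, with control replicates 1 to 5 or with the replicate block. The ETS factor SPDEF, chosen after its values were seen, ranged from 327 to 825 (median 568) CPM within the R1881 group and was at 219, 185, 188 and 229.7 CPM with darolutamide, the SE of its change of -1.51 being 0.26.

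Some androgen-induced genes were close to the vehicle level already at the lower dose. ERRFI1, a feedback inhibitor of EGF receptor signalling, had 40.8, 41.9, 42.7 and 42.5 CPM against 188 to 234 (median 203) CPM with R1881 and 20.7 to 24.3 (median 22.8) CPM with DMSO, a log2 fold change of -2.29 ± 0.063. SAT1, which acetylates polyamines for export and breakdown, had 65.8, 83.2, 72.0 and 74.3 CPM against 289.8 to 339 (median 310.3) CPM and 43.99 to 51.6 (median 48.8) CPM (-2.07 ± 0.053). PDCD4, a translation inhibitor, had 262, 294, 272 and 269.8 CPM against 932 to 1104 (median 974) CPM and 222 to 249.7 (median 228) CPM (-1.84 ± 0.046). In these 3 genes the darolutamide libraries lay much nearer to DMSO than to R1881, without overlap with either. The neurofilament gene NEFH (-2.18), the peptidase gene MME (-2.01) and the adenylate kinase gene AK5 (2.07) made up, with SAT1 and PDCD4, the 5 strongly R1881-regulated genes whose level lay nearest to DMSO.

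At the other end, CYP1B1, an oestrogen- and xenobiotic-metabolising cytochrome, was not called. It had 49.1, 55, 52.2 and 55 CPM with 500 nM darolutamide, 41.6 to 57.5 (median 53.0) CPM with R1881 and 5.46 to 7.27 (median 6.76) CPM with DMSO, and the log2 fold change against R1881 was 0.072 ± 0.073 (SE, adjusted p = 0.427). The 4 values fell inside the R1881 range. With control replicates 6 and above only, it was 0.19 (adjusted p = 0.0325), and without TMM factors 0.17 (adjusted p = 0.0378). At 2 µM CYP1B1 was lower than at 500 nM, with a log2 fold change of -0.66 ± 0.082 (SE, adjusted p = 4.89e-09). ALCAM, an androgen-repressed cell adhesion molecule, was not called either, with 17.8, 20.1, 18.4 and 19.5 CPM against 16.1 to 20.6 (median 18.4) CPM with R1881 and 83.4 to 99.3 (median 85.8) CPM with DMSO. Its log2 fold change was 0.068 ± 0.062 (SE, adjusted p = 0.367), and 0.16 without TMM factors (adjusted p = 0.0125). SEMA3E (0.077), FZD8 (-0.089) and CACNG4 (-0.14) were the other 3 genes nearest to R1881, none of them called, although CACNG4 was at -0.24 (adjusted p = 0.0495) without 500 nM replicate 4.

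Androgen-repressed genes were partly released, beside 26.7% of all genes called upward and 26.4% called downward. Of 20 members 17 rose, UGT2B11 and UGT2B28 fell, and CDH2 was not called, with a median log2 fold change of 1.31. Against DMSO 17 of the 20 remained lower (30.8% of all genes were lower), with a median of -2.62. UGT2B11 had 0.388, 0.0507, 0.239 and 0.304 CPM with darolutamide, 0.438 to 1.36 (median 1.02) CPM with R1881 and 0.101 to 0.577 (median 0.264) CPM with DMSO. UGT2B11 and UGT2B28 were higher with R1881 than with DMSO (log2 fold changes of 1.68 and 2.32), so they were not androgen-repressed here and fell towards the vehicle level. HES6, a repressor of the HES family, was higher than in both references (0.83 and 0.79). R1881 and DMSO thus differed little for HES6, and its rise was not a move towards the vehicle level. The mean of the list lay between both references, 0.997 to 1.28 above the R1881 mean in the darolutamide libraries, 2.10 to 2.24 at 2 µM and 3.19 to 3.39 in DMSO.

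WNT2, a secreted WNT ligand, showed the largest rise of the list and of the genes above median expression. R1881 libraries held 0.185 to 0.842 (median 0.574) CPM, the darolutamide libraries 6.78, 5.73, 5.70 and 4.82 CPM and DMSO 78.6 to 89.0 (median 83.9) CPM. Darolutamide lay above R1881 in all 4 libraries and still 14.6-fold below DMSO on average, with log2 fold changes of 3.46 ± 0.13 and -3.87 ± 0.088. IGFBP3, a binding protein that sequesters insulin-like growth factors, had 8.38, 11.5, 10.3 and 12.5 CPM against 1.26 to 2.71 (median 2.14) CPM and 241 to 282 (median 253) CPM (2.39 ± 0.11). PPFIA2, a liprin scaffold protein, had 53.7, 52.5, 54.1 and 56.2 CPM against 10.4 to 13.4 (median 11.01) CPM and 411 to 476 (median 448) CPM (2.22 ± 0.063). All of the 3 genes rose again from 500 nM to 2 µM, by 2.86, 2.03 and 1.81.

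MYC, a transcription factor for growth and ribosome production, was chosen after its values were seen. It was at 174, 155, 166 and 163 CPM with darolutamide, 49.0 to 60.9 (median 52.9) CPM with R1881 and 291 to 339.7 (median 330.5) CPM with DMSO (1.60 ± 0.073), and the 3 groups were separate. Further large rises above median expression were those of PI15 (2.81), NOS1 (2.45), COLCA1 (2.25), MCAM (2.25) and KHDRBS3 (2.11). FABP5, a fatty acid-binding protein, and its pseudogene FABP5P7 rose by 2.14 and 2.20, but they share reads and cannot be taken as separate.

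Enzymes that make and clear androgens rose on balance, 9 of 13 members upward and 2 downward with a median of 0.92. The shares of all genes were 26.7% and 26.4%. HSD17B6, which can convert androstanediol back to an active androgen, had 11.05, 10.7, 9.67 and 9.85 CPM against 1.95 to 3.18 (median 2.47) CPM with R1881 and 14.9 to 18.8 (median 16.5) CPM with DMSO (2.04 ± 0.084). AKR1C3, another producer of active androgen, rose by 1.29 and UGT2B15, which glucuronidates androgens for excretion, by 3.31. The UGT2B genes are near-identical copies, so the opposite directions of UGT2B15 and of UGT2B11 (-1.88) and UGT2B28 (-1.71) are uncertain.

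The replication genes did not lie between R1881 and DMSO. All 50 tested genes of DNA replication and S phase rose relative to R1881, with log2 fold changes from 0.53 to 1.75 and a median of 1.12. All 50 were also higher than in DMSO, with a median of 1.39, whereas over all genes 1615 (8.38%) were above both references. In each of the 50 genes the 4 darolutamide libraries lay above the 9 R1881 libraries, against 17.7% of all genes. Raising the dose to 2 µM changed 1 of the 50, with a median of 0.018.

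**Figure D4:**
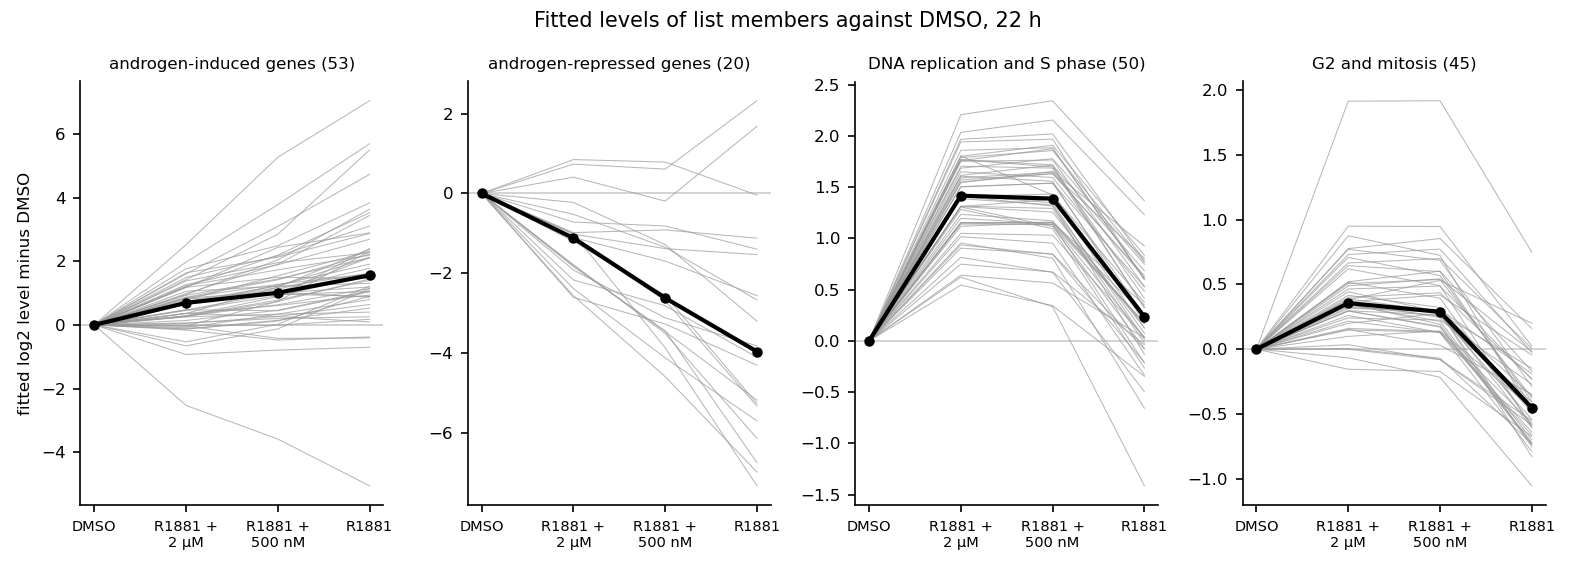
Fitted log2 level of every member of 4 gene lists relative to DMSO at 22 h (grey lines, 1 per gene; black, list median), ordered DMSO, R1881 plus 2 µM, R1881 plus 500 nM and R1881. The medians of the androgen lists run in 1 direction across the 4 groups, with 1.01 and -2.62 at 500 nM, while the S-phase list peaks with darolutamide, at 1.39.

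MCM4 (chr8:47960185-47978160), a subunit of the replicative helicase, had 506, 486, 491 and 492 CPM with 500 nM darolutamide, 182 to 204 (median 187) CPM with R1881 and 159 to 174 (median 168) CPM with DMSO. At 2 µM it had 476 to 534 (median 521) CPM. The 2 darolutamide groups overlapped and both lay above every library of the other 2 groups, and the log2 fold change was 1.38 ± 0.03 (SE, adjusted p = 1.08e-40) against R1881 and 1.56 ± 0.031 (SE, adjusted p = 1.54e-43) against DMSO. The difference between doses was 0.049 ± 0.035 (SE, adjusted p = 0.369).

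PCNA, the sliding clamp of DNA polymerases, had 401, 389.7, 417 and 385 CPM against 177 to 189 (median 186) CPM with R1881 and 123 to 142 (median 131) CPM with DMSO (1.11 ± 0.031). TYMS, which makes thymidylate, had 189, 179, 190.3 and 181 CPM against 63.8 to 70.7 (median 67.8) CPM and 69.8 to 76.6 (median 74.4) CPM (1.46 ± 0.045). DTL, which directs degradation of the licensing factor CDT1, had 63.1, 62.7, 67.3 and 59.0 CPM against 20.7 to 28.5 (median 24.0) CPM and 16.7 to 21.4 (median 19.3) CPM (1.39 ± 0.062). In none of the 3 did a darolutamide library overlap with R1881 or DMSO.

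E2F1, a transcription factor known to act on replication genes, and PRIM1, a primase subunit, were chosen after their values were seen. They were picked because their references differ most. E2F1 had 68.0, 57.9, 57.2 and 69.4 CPM with darolutamide, 28.2 to 35.2 (median 32.6) CPM with R1881 and 9.82 to 14.9 (median 12.6) CPM with DMSO (0.98 ± 0.083 against R1881). PRIM1 had 42.3, 40.5, 42.7 and 37.9 CPM against 10.54 to 14.0 (median 12.1) CPM and 29.9 to 36.3 (median 31.7) CPM (1.75 ± 0.067). E2F1 was thus higher and PRIM1 lower with R1881 than with DMSO, and both were highest with darolutamide. Among genes above median expression, the 8 that stood farthest above both references were EXO1, CDCA7, DTL, FAM111B, MCM4, MCM10, ORC1 and RAD54L, most of them known from replication or DNA repair. The nuclease gene EXO1 had 48.6, 49.9, 53.9 and 47.0 CPM against 15.6 to 19.2 (median 17.9) CPM with R1881 and 16.0 to 18.4 (median 17.1) CPM with DMSO.

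All 45 genes of G2 and mitosis rose as well, from 0.33 to 1.22 with a median of 0.77. Relative to DMSO 37 were higher and 1 was lower, with a median of 0.29. Of all genes, 26.7% rose relative to R1881, and 31.9% were higher and 30.8% lower than with DMSO. MAD2L1, a spindle checkpoint protein, had 93.2, 95.0, 102 and 96.5 CPM against 37.6 to 47.2 (median 40.7) CPM with R1881 and 51.9 to 63.9 (median 59.6) CPM with DMSO (1.22 ± 0.061). The proliferation marker MKI67, chosen after its values were seen, had 301, 287, 292 and 281 CPM against 147 to 172 (median 155) CPM and 179 to 217 (median 197) CPM (0.91 ± 0.05). MKI67 was therefore lowest with R1881, and its darolutamide libraries lay above DMSO. PLK1, a mitotic kinase also chosen after its values were seen, differed least of those shown, with 36.2, 37.3, 34.5 and 38.2 CPM against 24.2 to 28.5 (median 25.6) CPM and 24.7 to 35.0 (median 29.6) CPM (0.50 ± 0.084), and overlapped with DMSO. MYBL2, the cofactor of mitotic gene activation and chosen in the same way, had 154, 127, 137 and 149 CPM against 43.99 to 75.8 (median 62.0) CPM and 29.4 to 42.0 (median 39.5) CPM (1.17 ± 0.11).

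The regulators of G1 moved in both directions, with 6 of 16 called upward and 9 downward, beside 26.7% and 26.4% of all genes. CDKN1A, the p21 inhibitor of cyclin-dependent kinases, had 28.4, 28.2, 30.4 and 31.0 CPM against 67.0 to 82.3 (median 73.4) CPM with R1881 and 16.6 to 20.5 (median 18.0) CPM with DMSO (-1.33 ± 0.071). CDKN2B, the p15 inhibitor, changed by -1.81. CDK4, the kinase partner of D cyclins, had 238, 232, 242 and 232 CPM against 115 to 132 (median 122) CPM and 157 to 185 (median 165) CPM (0.93 ± 0.04) and was above both references. SKP2, which targets p27 for degradation, changed by 0.97 ± 0.047 and the pocket protein gene RBL1 by 1.17. CCND1 had 355, 359, 353 and 349 CPM against 446 to 466 (median 461) CPM (-0.38 ± 0.028). CCND1, which encodes cyclin D1, was thus lower while its kinase partner was higher.

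All 25 genes of MYC and ribosome biogenesis rose, with a median of 0.62, beside 26.7% of all genes. Relative to DMSO 14 were higher and 5 lower, beside 31.9% and 30.8% of all genes. NOP56, a core protein of the small nucleolar RNA complexes that methylate ribosomal RNA, had 274, 264, 278 and 259 CPM against 147 to 169.8 (median 155) CPM with R1881 and 196 to 210.1 (median 198) CPM with DMSO (0.78 ± 0.031). FBL, the methyltransferase of the same complexes, had 159, 148, 159.8 and 152 CPM against 77.1 to 91.7 (median 85.0) CPM and 157 to 182 (median 169) CPM (0.88 ± 0.038). FBL overlapped with DMSO, and NOP56 exceeded both references. Unlike the S-phase genes, 16 of the 25 rose again from 500 nM to 2 µM, beside 10.4% of all genes, with a median of 0.19.

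The secretory pathway was lowered as a group, beside 26.4% of all genes called downward, 26.7% called upward and 31.9% higher than with DMSO. Of 43 genes of endoplasmic reticulum protein folding and export 41 fell and none rose, with a median log2 fold change of -0.56, and 40 remained above DMSO. Of 34 genes of the COPI and COPII vesicle coats and their cargo receptors 31 fell and MIA3 rose, with a median of -0.63, and 31 remained above DMSO. The list means lay between both references in every darolutamide library: for the folding genes the darolutamide libraries lay at -0.61 to -0.53 from the R1881 mean and the DMSO libraries at -1.48 to -1.40. From 500 nM to 2 µM another 32 of the 43 and 26 of the 34 fell, beside 9.75% of all genes.

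ERN1, the IRE1 sensor of unfolded protein that splices XBP1 mRNA, had 36.6, 42.0, 37.4 and 40.1 CPM against 103 to 115 (median 109) CPM with R1881 and 21.6 to 27.6 (median 24.8) CPM with DMSO (-1.47 ± 0.048). XBP1 had 315, 356, 340.4 and 328 CPM against 495 to 550.3 (median 518) CPM and 229.9 to 263 (median 247) CPM (-0.64 ± 0.038). HSPA5, the chaperone BiP, chosen after its values were seen for the motif printed above, had 1443, 1542, 1550.3 and 1577 CPM against 2036 to 2387 (median 2256) CPM and 637 to 698 (median 661) CPM (-0.55 ± 0.039). Sensor, transcription factor and chaperone were thus all lower than with R1881 in each of the 4 libraries. Of the coat genes, SEC24D, a cargo adaptor of COPII, had 75.5, 77.0, 85.5 and 86.4 CPM against 168 to 194 (median 179.6) CPM and 28.6 to 31.2 (median 29.4) CPM (-1.14 ± 0.048). COPB1, a COPI subunit chosen in the same way as HSPA5, changed by -0.66 ± 0.051 and COPG1 by -0.92. CREB3L4, a membrane-bound transcription factor of the secretory pathway in prostate, changed by -0.96. Genes of the PERK and ATF4 branch and of serine synthesis did not move together, with 6 of 24 called upward and 9 downward. Over all genes, 26.7% were called upward and 26.4% downward.

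Lipid genes fell in part, beside 26.4% of all genes called downward and 26.7% upward. Of 25 genes of cholesterol synthesis and uptake 14 fell and none rose, with a median of -0.26. Against DMSO 21 were higher, beside 31.9% of all genes. INSIG1, the sterol-sensing anchor of the SREBP pathway, had 353, 379, 366 and 381 CPM against 699.8 to 821 (median 752) CPM with R1881 and 70.9 to 86.6 (median 77.4) CPM with DMSO (-1.03 ± 0.061). INSIG1 was partly lowered and still several-fold above vehicle. Of 22 genes of fatty acid synthesis 17 fell and ACACB rose. ACSL3, an acyl-CoA synthetase of lipid droplets and a classical androgen target, had 1430.3, 1651, 1550.0 and 1637 CPM against 4278 to 5385 (median 4742) CPM and 353 to 425 (median 372) CPM (-1.59 ± 0.056). Of 25 genes of fatty acid oxidation 15 fell and 3 rose, with the carnitine carrier SLC25A20 at -1.19 and HADH at 0.67.

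In polyamine metabolism 9 of 15 genes fell and 3 rose (26.4% and 26.7% of all genes). ODC1, the rate-limiting enzyme, had 739, 816, 792 and 766 CPM against 2075 to 2349.6 (median 2119) CPM with R1881 and 234 to 251 (median 238) CPM with DMSO (-1.47 ± 0.043). ODC1 was graded like the other induced genes. SMS, the spermine synthase, changed by -0.79, while the arginase gene ARG2 (1.29) and MTAP (0.85), which recycles the methylthioadenosine left by polyamine synthesis, rose. Of 20 genes of the hexosamine pathway and O-glycosylation 13 fell and 4 rose, with GNE and ST6GAL1 of sialic acid metabolism at -1.73 and -1.32.

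Signalling lists were mixed, beside 26.7% of all genes called upward and 26.4% downward. Among 30 genes of PI3K, AKT and mTOR signalling 12 fell and 3 rose, a median of -0.12, with PDPK1 at -0.73, MTOR at -0.60 and the insulin receptor substrate IRS1 at 0.84. Of 10 genes of the IGF receptor axis 6 rose and 2 fell. The binding proteins IGFBP5 (1.72) and IGFBP2 (1.34) rose beside IGFBP3, while the receptors IGF1R (-0.67) and IGF2R (-0.38) fell. Of 21 WNT ligands and feedback genes 9 rose and LEF1 fell (-0.21), with the WNT inhibitors APCDD1 at 1.73 and SFRP1 at 0.52. Of 13 ERK feedback genes and PEA3 factors 2 rose and 6 fell. Of 14 genes that the glucocorticoid receptor also induces 10 fell and none rose, with the NF-kappa-B inhibitor NFKBIA at -1.04, and 4 of 6 aryl hydrocarbon receptor targets fell, with TIPARP at -1.78. CYP1A1 was low in every group, at 0.63, 1.01, 0.67 and 0.913 CPM with darolutamide and 2.998 to 4.91 (median 3.89) CPM with R1881 (-2.26 ± 0.19).

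Of 12 prostate lineage factors 9 fell and GATA2 rose, while of all genes 26.4% fell and 26.7% rose. GATA2, a pioneer factor that cooperates with the androgen receptor, had 214, 189, 198 and 218 CPM against 109 to 153 (median 130.0) CPM with R1881 and 231 to 366 (median 319.9) CPM with DMSO (0.64 ± 0.11). SOX9, a developmental factor of the prostate epithelium, changed by -0.82. All 7 luminal markers fell, with KRT18 at -0.87. Of 16 neuroendocrine markers 7 rose and 4 fell, among them PEG10 (1.38), ENO2 (0.90) and BEX1 (0.95) upward and SYP (-0.58), INSM1 (-0.45) and NTS (-1.40) downward, so the list had no common direction. Of 13 mitochondrially encoded genes 11 were not called.

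Genes that fell below both references numbered 990 (5.14%). RDH10, which makes retinaldehyde for retinoic acid, had 12.3, 11.1, 13.6 and 13.7 CPM against 24.7 to 33.8 (median 30.4) CPM with R1881 and 24.5 to 28.6 (median 26.4) CPM with DMSO (-1.22 ± 0.091 and -1.09 ± 0.093). ACSL5, a mitochondrial acyl-CoA synthetase, had 45.2, 49.5, 50.1 and 43.4 CPM against 85.9 to 108 (median 93.0) CPM and 149.6 to 171 (median 158) CPM (-0.998 ± 0.058 and -1.77 ± 0.06). The histone gene HIST1H2AC had 12.9, 13.3, 13.9 and 13.1 CPM against 25.5 to 31.6 (median 28.8) CPM and 38.3 to 44.7 (median 41.6) CPM (-1.10 ± 0.062), with the reservation that histone paralogues share reads. None of the 3 overlapped R1881 or DMSO. ID1, ELF1, ITPR2, FOXO4 and FBXO32 completed the 8 that lay farthest below both among genes above median expression, FOXO4 and the ubiquitin ligase gene FBXO32 being known from growth arrest and atrophy.

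The effect at 22 h was set against that of the same dose at 8 h, for which the libraries are different ones. At 8 h 5897 genes were called (30.6%), 2871 upward (14.9%) and 3026 downward (15.7%). Of these, 1645 rose at both times (57.3% of the 8 h and 32.0% of the 22 h rises) and 2032 fell at both (67.2% and 40.0%). The difference between the times, tested as an interaction, was called for 6680 genes (34.7%), upward for 3528 (18.3%) and downward for 3152 (16.4%).

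In the 4 lists given here the median was smaller in size at 8 h than at 22 h. Androgen-induced genes had a median of -0.16 with 28 of 53 lower and 13 higher, and folding genes already -0.37 with 31 of 43 lower. The S-phase list had a median of 0.19 at 8 h with 28 of 50 higher and 2 lower (14.9% of all genes were higher), a range of -0.59 to 0.70, and the mitosis list 0.037 with 5 of 45 higher and 2 lower. The interaction was positive and called in all 50 and all 45, beside 18.3% of all genes. The log2 fold change of MCM4 was 0.28 at 8 h and 1.38 at 22 h, that of MKI67 0.024 ± 0.052 (SE, adjusted p = 0.777) and 0.91, and that of CDK4 0.061 ± 0.041 (SE, adjusted p = 0.281) and 0.93.

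**Figure D5:**
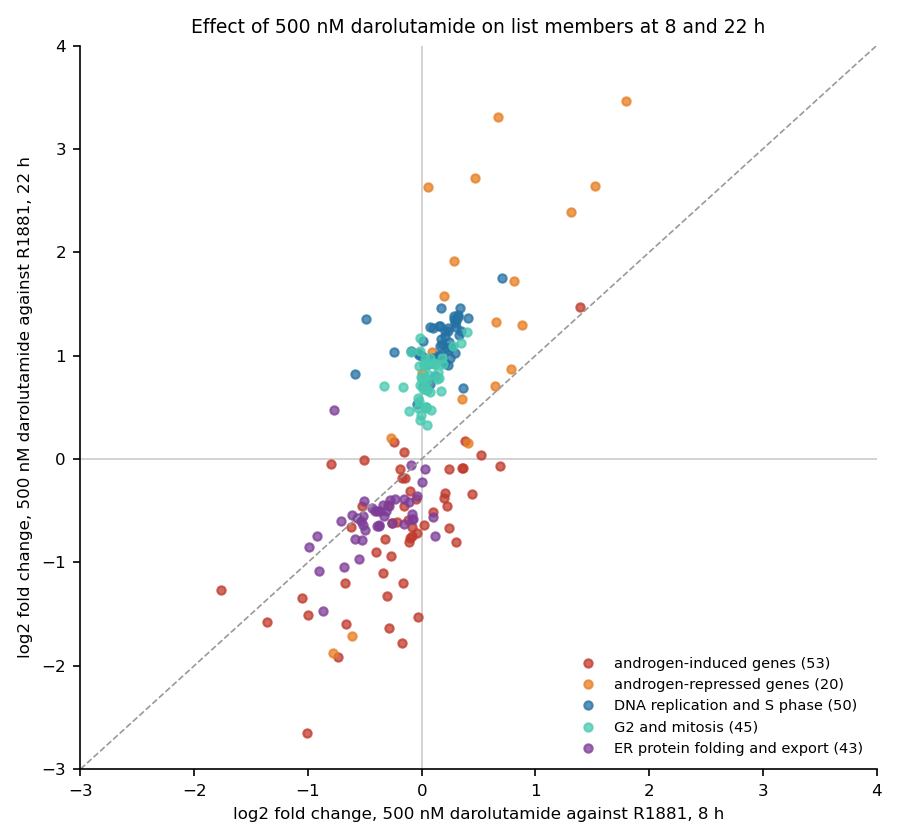
Log2 fold change of 500 nM darolutamide against R1881 at 8 h (horizontal) and 22 h (vertical) for the members of 5 gene lists; points on the dashed line changed equally at both times. The S-phase genes have a median of 0.19 at 8 h and 1.12 at 22 h, and the mitosis genes one of 0.037 and 0.77. The folding genes have medians below 0 at both times, -0.37 and -0.56, with members up to 0.12 and 0.47.

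Single androgen targets also differed in time. The log2 fold change of FKBP5 was -1.01 at 8 h and -2.65 at 22 h, that of KLK3 -0.034 ± 0.075 (SE, adjusted p = 0.782) and -1.53, and that of ERRFI1 -2.02 and -2.29. The fold change of ERRFI1 was thus similar at both times, but its levels were not. At 8 h it was at 199 to 216 CPM with darolutamide, 741 to 948 CPM with R1881 and 19.9 to 25.6 CPM with DMSO. KLK3 was not yet called at 8 h, when R1881 libraries held 33.5 to 46.9 CPM and DMSO libraries 14.2 to 18.8 CPM. R1881 had thus raised KLK3 less at 8 h than at 22 h. The largest positive interactions among genes above median expression were those of KHDRBS3 (-0.27 and 2.11), an RNA-binding protein, PHF19 (-1.41 and 0.53), a Polycomb accessory protein, and VCL (-2.11 and -0.20), the cytoskeletal protein vinculin. VCL was strongly lower than with R1881 at 8 h. At 22 h it was at 61.2, 61.3, 60.7 and 63.0 CPM with darolutamide against 64.9 to 75.1 (median 72.1) CPM with R1881. Its darolutamide level at 22 h was also 1.02-fold that of DMSO, so R1881 and DMSO themselves differed little.

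The higher dose was set against 500 nM at 22 h. Of all genes 3889 (20.2%) differed, 2011 upward and 1878 downward. The upward count and the balance depended on the libraries used. Without 500 nM replicate 1, 1296 genes were called upward and 2082 downward, and without 500 nM replicate 4, 1208 and 1923. The counts were 1541 and 1964 without 2 µM replicate 3, but 1828 and 1635 without 500 nM replicate 2. Androgen-induced genes fell further in 43 of 53 (9.75% of all genes fell), with a median of -0.48, and repressed genes rose further in 14 of 20 (10.4% of all genes rose), with a median of 0.94. Of the 50 replication genes and the 45 mitosis genes 1 each was called upward and none downward, with medians of 0.018 and 0.064. The androgen targets thus continued to move with dose, whereas no difference between the doses beyond the spread was found for nearly all proliferation genes, which does not show that both doses act alike on them.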

How the data were processed

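RNA was isolated from VCaP cells on RNeasy columns with DNA digestion, and poly-T purified mRNA was made into libraries with the TruSeq Stranded mRNA kit and sequenced as single-end reads. Per the methods and the submitters' processing notes, the authors demultiplexed with bcl2fastq 2.17, aligned to GRCh38 with STAR and obtained read counts per gene with featureCounts of the Subread package. The deposited values are these raw counts, not normalized. Annotation, strandedness of the counting and treatment of multi-mapped reads are not given in the sources used here, so genes that overlap, lie antisense or have near-identical copies carry uncertain counts. The methods state 5 biological replicates per condition, and the labels assign 4 to 10 libraries to each VCaP group.

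The filter of the methods, 10 or more reads in 4 or more libraries, was applied over the VCaP libraries. All 55 VCaP libraries in 8 groups were fitted together in edgeR 4.0.16 (R 4.3.3) with TMM factors, glmQLFit and glmQLFTest, as the main test, and p-values were adjusted by the Benjamini-Hochberg method over all 19266 genes. DESeq2 1.42.0, which the authors used, served as an alternative, and limma 3.58.1 was loaded for edgeR. The SE was derived from the F statistic, as the size of the log2 fold change over the root of F. CPM use TMM-scaled totals, and log2 CPM a prior count of 2. The comparisons of 500 nM darolutamide with R1881, with DMSO and with 2 µM share the 500 nM libraries, and R1881 against DMSO shares the R1881 libraries, so their values are only set side by side. The script was tested on simulated data: for this comparison, with 19266 genes of which 200 were changed, 67 of 100 changes of 0.5 and 88 of 100 changes of 1 (log2) were recovered, and 4 unchanged genes were called. In the real comparison 53.0% of the genes were called. The simulation therefore does not test the scaling or the rate of false calls where so many genes differ.

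The members and gene lists were chosen with earlier results of these data known, and lists are described by counts and medians without a test of their own. Genes were named by rule: super-enhancer genes named by the study, the largest changes of each comparison among genes above median expression, the 3 members per list and direction with the smallest adjusted p, and the genes farthest beyond or nearest to a reference. Further genes were picked with their values in view and are marked so. Gene positions come from GENCODE 44 on GRCh38 and promoters from RefSeq GRCh38.p14, where 10750 of the 19266 genes matched. The alternatives were DESeq2, other scaling and filters, fits of the compared groups only, subsets of the control libraries, a GC covariate (for 83.6% of the genes), the replicate number as a block, and leaving out single libraries. Leaving out 2 µM and 8 h libraries was added after the data were seen. LAPC4 libraries were not analysed here. The values of some single genes are not reported here.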

Additional observations from a re-analysis of the deposited data

Results flagged for a closer look

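At 22 h, 272 groups of 4 to 9 libraries were examined, for named genes and for means of gene lists. In 10 of them (3.68%), each for a named gene, 1 library stood apart by Dixon's criterion, where chance alone gives about 1 in 20. In the 500 nM group this was KLK3, in which replicate 4 at 74.6 CPM lay above the other libraries at 62.2 to 64.0 CPM (gap over range 0.853), and IDI1, in which replicate 1 at 223 CPM lay below 247 to 249 CPM (0.904). In the R1881 group it was PDCD4 (0.558, replicate 3 high), MKI67 (0.495, replicate 3 high) and CCND1 (0.497, replicate 1 low). In the DMSO group it was VCL (0.547, replicate 8 low) and TIPARP (0.578, replicate 8 high), and at 2 µM NCAPD3 (0.72, replicate 4 high), IGFBP3 (0.747, replicate 4 high) and TIPARP (0.718, replicate 2 low).

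The effect of 500 nM darolutamide against R1881 differed between 22 h and 8 h in 6680 genes by the interaction term of edgeR's quasi-likelihood fit. Among the named genes with the largest differences (22 h minus 8 h, log2), the value was 2.37 for KHDRBS3, 1.94 for PHF19, 1.91 for VCL, 1.80 for the adenylate cyclase gene ADCY2 and 1.80 for the tissue factor gene F3. It was -1.67 for SAT1, -1.67 for ST6GAL1, -1.64 for FKBP5, -1.60 for STEAP4 and -1.58 for HGD, an enzyme of tyrosine breakdown.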

How the results depend on the processing

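Total counts of called genes stayed within 1.5 times of the main value under each alternative run, except for 2 µM against 500 nM, where a slope on GC content as a covariate gave 5969 genes (3131 higher, 2838 lower) against 3889. By direction, the 2011 genes higher at 2 µM than at 500 nM became 1208 (1923 lower) without 500 nM replicate 4, 1296 (2082 lower) without replicate 1 and 1663 (2410 lower) with control replicates 1 to 5, and the 990 genes below both references became 549 (1311 above) with the replicate block. The cause was not tested. Leaving out single libraries gave 9396 to 10275 genes for 500 nM against R1881, 11332 to 12166 against DMSO, 3131 to 3969 for 2 µM against 500 nM, 6025 to 6756 for the interaction with time, 2306 to 2642 beyond both references, and 53.9 to 55.1% of R1881-regulated genes called in the opposite direction in separate libraries (58.2% with all). Without TMM factors 1961 genes were above and 725 below both references, against 1615 and 990. DESeq2 called 10097 genes for 500 nM against R1881. The replicate block gave 8716 (4446 higher, 4270 lower), but same-numbered libraries correlated at -0.062, -0.10, 0.13 and 0.081 and only number 3 correlated best with its own number, so the numbers were not taken to pair the libraries. All 50 S-phase genes stayed above both references in each alternative, 29 to 39 of the 45 mitosis genes did, and 24 or 25 of the 25 ribosome genes stayed higher than R1881.

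Of the values of named genes under the alternatives, 4105 kept direction and side of the threshold, 25 lost and 4 gained the call, and 6 changed sign, all near 0: PMEPA1 (0.0077) and FZD8 (0.0069) without TMM factors, CYP1B1 (-0.010) with the replicate block, and SEMA3E with control replicates 1 to 5 (-0.00025), with the replicate block (-0.086) and without 500 nM replicate 3 (-0.0049, where leaving out single libraries gave up to 0.15). The calls lost were those of PMEPA1, CAMKK2, EIF4EBP2, MT-ND6, MT-ND5 and VCL, and the cause was not tested. With the GC slope, the adjusted p of SPDEF fell from 1.31e-06 to 1.58e-41 at a similar fold change (-1.46). Depth limits low genes such as CYP1A1 and the markers of other cell types.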

Other observations

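Antigen presentation and interferon genes were split at 500 nM darolutamide, with 5 of 17 called upward and 7 downward (median -0.13). The shares of all genes were 26.7% upward and 26.4% downward. B2M, the light chain of MHC class I, was at 210.3, 237, 214 and 225 CPM in the darolutamide libraries, 400.0 to 504 (median 457) CPM with R1881 and 127 to 151 (median 139) CPM with DMSO, a log2 fold change of -1.04 ± 0.047 (SE, adjusted p = 2.7e-26). The heavy chains HLA-C (-1.31) and HLA-B (-1.07) fell with it, while the peptide transporter gene TAP2 (0.80), the MHC class I activator NLRC5 (1.70) and the interferon-induced OAS1 (0.91) rose. HLA genes are highly similar to each other, and their split is uncertain.

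Of 15 zinc and manganese transporters 10 fell and 2 rose. The ZIP family transporters SLC39A7 (-0.75) and SLC39A6 (-0.35) and the Golgi zinc transporter SLC30A7 (-0.67) fell, and the manganese exporter SLC30A10 rose by 2.20. Of 18 amino acid transporters 5 rose and 6 fell, near the shares of all genes (26.7% and 26.4%). The cystine importer SLC7A11 was at 0.45, the cationic transporter SLC7A1 at 0.51 and the glutamine importer SLC1A5 at -0.56. Among genes of the PERK and ATF4 branch, the serine synthesis gene PSAT1 (0.89), the mitochondrial folate enzyme MTHFD2 (0.66) and the secreted STC2 (1.21) rose, while the mTOR inhibitor DDIT4 (-0.90), the sensor kinase EIF2AK3 (-0.60) and ATF5 (-1.39) fell.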
